A study of Homo sapiens with 6 samples.

Results

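The genes described here are the inflammatory caspases CASP1, CASP4 and CASP5, the CARD-only genes CARD16, CARD17 and CARD18, the adaptor gene PYCARD and the pore-forming gene GSDMD, 8 of the 19402 genes in the deposited count table. They were chosen by name, with the differences between the groups in these same libraries already known, so those differences are given below as a description and not as a test. The cells were CFPAC1, an established human line of pancreatic ductal adenocarcinoma, and the RNA made up 3 libraries of pooled clones labelled IRF1-KO and 3 libraries of pooled WT clones. All clones were isolated by dilution after infection with the lentiCRISPRv2 vector, which in the IRF1-KO clones carried wild-type Cas9 with a guide RNA against IRF1. The design text of the series also names pancreatic cancer lines with and without interferon beta, which are not analysed here. The labels of the pools name no interferon, and the design text does not say outright that the pools were untreated. Each library is a pool of clones, and the number of clones per pool and their separate values are not given. The p-values therefore measure the spread between these libraries.

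Inflammasomes are protein complexes that form in the cytosol when a sensor meets a microbial or damage signal. Through the adaptor encoded by PYCARD (also called ASC) they bring together caspase-1, which then cleaves the precursors of interleukin-1 beta and interleukin-18 and cleaves gasdermin D. Caspase-4 and caspase-5 bind bacterial lipopolysaccharide in the cytosol and also cleave gasdermin D, whose freed fragment forms pores in the plasma membrane, a death called pyroptosis. The CARD-only proteins consist mainly of a caspase recruitment domain (CARD) and can bind that of caspase-1. IRF1 is an interferon-induced transcription factor, and CASP1 is known as an interferon-inducible gene.

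Total counts ranged from 16413682 to 28258075 in the IRF1-KO libraries and from 18394715 to 21003927 in the WT libraries, and 13388 genes passed the filter on low counts. The IRF1 transcript itself had 117, 123 and 132 CPM (the count scaled to library size with TMM factors) in IRF1-KO replicates 1 to 3, against 87.3, 91.3 and 82.6 CPM in WT replicates 1 to 3. All 3 libraries labelled IRF1-KO were above all WT libraries. A small insertion or deletion need not lower a transcript, so these counts do not check the label, which is used here as given. The 9 ductal epithelial markers summed to between 5047 and 6957 CPM in IRF1-KO and between 4438 and 7580 CPM in WT libraries. CFTR had no more than 0.657 CPM in any library. Apart from CFTR, each of these markers was lowest among the WT libraries in WT replicate 3. There CDH1 had 107 CPM, against 499 and 378 CPM in WT replicates 1 and 2, and EPCAM 197 CPM, against 424 and 414 CPM. The 6 fibroblast markers summed to no more than 76.4 CPM in any library, and the 4 endothelial markers to no more than 8.17 CPM.

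The genes of the chromosome 11 cluster are close relatives, and the start of the coding sequence shows how close. The cluster runs over CASP4 (ENSG00000196954.14; GRCh38 chromosome 11, 104942866 to 104969366), CASP5 (104994235 to 105023168), CASP1 (ENSG00000137752.24; 105025443 to 105035250), CARD16 (ENSG00000204397.7; 105041326 to 105101431), CARD17 (105092469 to 105101431, with the current symbol CARD17P) and CARD18 (105137721 to 105531697), all on the minus strand. The first 150 coding bases encode the start of the CARD. Reads within them can match both CASP1 and CARD16, and CARD17 and CARD18 are given for comparison. The bases are shown from the GENCODE 29 transcript with the longest coding sequence. They lie in 2 exons of each gene (GRCh38, minus strand), within chr11:105034332-105035113 for CASP1, chr11:105044516-105045297 for CARD16, chr11:105100637-105101414 for CARD17 and chr11:105138936-105139726 for CARD18. Capitals mark bases that differ from CASP1.
CASP1: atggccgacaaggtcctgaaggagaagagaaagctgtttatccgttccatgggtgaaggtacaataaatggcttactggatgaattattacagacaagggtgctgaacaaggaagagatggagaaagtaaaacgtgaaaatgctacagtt
CARD16: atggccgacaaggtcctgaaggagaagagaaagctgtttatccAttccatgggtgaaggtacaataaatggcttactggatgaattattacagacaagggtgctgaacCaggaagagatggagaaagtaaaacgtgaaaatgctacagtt
CARD17: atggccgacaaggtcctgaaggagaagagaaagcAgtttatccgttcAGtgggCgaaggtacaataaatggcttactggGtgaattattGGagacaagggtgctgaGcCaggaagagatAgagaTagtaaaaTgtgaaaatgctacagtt
CARD18: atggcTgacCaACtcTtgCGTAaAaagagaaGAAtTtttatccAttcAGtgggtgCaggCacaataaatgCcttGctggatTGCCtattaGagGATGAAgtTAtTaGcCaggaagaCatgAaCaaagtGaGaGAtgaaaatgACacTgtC
CARD16 was identical to CASP1 at 148 of these 150 bases, CARD17 at 138 and CARD18 at 102. The likeness did not run through the whole transcripts. Of all distinct 50-base words in GENCODE 29 transcripts, 4.37% of those of CASP1 and 10.6% of those of CARD16 also occurred in another gene, and for 100-base words these were 1.16% and 3.05%. Counts of CASP1 and CARD16 are therefore uncertain, since the treatment of reads that match both genes is not given in the sources used here. Shares of words are not shares of reads, so they set no limit on the counts affected. In the table's own exons, CARD16 and CARD17 shared 24 bases.

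CASP1, which encodes the caspase at the centre of the inflammasome, had few counts in the libraries labelled IRF1-KO. It had 0.366, 0.524 and 0.187 CPM in IRF1-KO replicates 1 to 3, against 2.96, 3.75 and 5.82 CPM in WT replicates 1 to 3. The highest IRF1-KO library lay well below the lowest WT library. Behind these values stood 6, 15 and 5 counts in the IRF1-KO libraries and 54, 69 and 121 counts in the WT libraries. The group means were 0.359 ± 0.168 CPM in IRF1-KO and 4.17 ± 1.48 CPM in WT (SD, n = 3 each), and the fitted log2 fold change was −3.52 ± 0.48 (SE), an 11.4-fold lower level.

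CARD16, whose product binds the CARD of caspase-1, also had groups that did not overlap, with IRF1-KO below WT. Its CPM were 0.305, 0.349 and 0.225 in IRF1-KO replicates 1 to 3, against 1.75, 3.37 and 3.22 in WT replicates 1 to 3, from 5, 10 and 6 counts and from 32, 62 and 67 counts. WT replicate 1 stood apart from the other WT libraries at the low end, whereas for CASP1 WT replicate 3 stood apart at the high end. The means were 0.293 ± 0.0630 CPM in IRF1-KO and 2.78 ± 0.895 CPM in WT (SD, n = 3 each), with a log2 fold change of −3.22 ± 0.42 (SE), or 9.35-fold lower.

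Both genes were kept in the fit through their WT counts. The filter asked for about 0.504 CPM in 3 libraries, a level that the 3 IRF1-KO libraries did not all reach for either gene. Leukocytes express CASP1 at high levels, and of 8 leukocyte markers the defining gene PTPRC had at most 0.122 CPM in IRF1-KO and 0.109 CPM in WT libraries, while FCGR3A had no count in any library. The 8 markers summed to between 143 and 179 CPM in IRF1-KO and between 170 and 213 CPM in WT libraries, nearly all from CD68 and LYZ, which epithelial cells also express. LYZ had 13.4, 22.5 and 24.5 CPM in IRF1-KO replicates 1 to 3, against 28.8, 75.0 and 25.6 CPM in WT replicates 1 to 3. On the scale of CASP1, CD14 averaged 1.87 CPM in IRF1-KO and 1.19 CPM in WT libraries, and ITGAM 1.52 and 1.66 CPM. Whether any CASP1 counts came from leukocytes was not tested. In bulk RNA, fewer cells with a transcript and less of it per cell cannot be told apart.

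CASP4, the lipopolysaccharide-binding caspase, was the most abundant of the 3 inflammatory caspases, and its groups lay closer together than those of CASP1. It had 44.0, 54.8 and 52.7 CPM in IRF1-KO replicates 1 to 3, against 73.8, 69.6 and 75.2 CPM in WT replicates 1 to 3. The IRF1-KO libraries all lay below the WT libraries, and IRF1-KO replicate 1 was the lowest of the 6. The means were 50.5 ± 5.71 CPM in IRF1-KO and 72.9 ± 2.94 CPM in WT (SD, n = 3 each), and the log2 fold change was −0.53 ± 0.12 (SE), or 1.44-fold lower. CASP5, the nearest relative of CASP4, was close to undetected, with 0, 0 and 1 counts in IRF1-KO and 0, 2 and 1 counts in WT replicates 1 to 3.

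The remaining CARD-only genes gave almost no reads. CARD17 had 0 counts in each IRF1-KO library and 0, 1 and 0 counts in WT replicates 1 to 3. CARD18 had 0 counts in all 6 libraries, where a count of 0 allows a level of up to 0.183 CPM in the shallowest library and 0.106 CPM in the deepest (3 counts per library, for counting error only). CASP5, CARD17 and CARD18 were too low to be tested, and no difference was detectable at this depth.

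PYCARD (ENSG00000103490.14; GRCh38 chromosome 16, 31201486 to 31203450) and GSDMD (ENSG00000104518.11; chromosome 8, 143553207 to 143563062), which act next to and after the caspases, overlapped between the groups. PYCARD had 5.97, 6.11 and 7.79 CPM in IRF1-KO replicates 1 to 3, against 6.79, 5.38 and 4.09 CPM in WT replicates 1 to 3. WT replicate 1 was above both IRF1-KO replicates 1 and 2. The means were 6.62 ± 1.01 CPM in IRF1-KO and 5.42 ± 1.35 CPM in WT (SD, n = 3 each), with a log2 fold change of 0.29 ± 0.25 (SE). GSDMD had 23.8, 32.3 and 27.0 CPM in IRF1-KO replicates 1 to 3, against 18.2, 27.7 and 25.1 CPM in WT replicates 1 to 3. The ranges overlapped, with WT replicate 1 the lowest of the 6. The means were 27.7 ± 4.25 CPM in IRF1-KO and 23.7 ± 4.95 CPM in WT (SD, n = 3 each), and the log2 fold change was 0.23 ± 0.19 (SE).

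The last 2 genes have GC-rich transcripts, at 61.7% for PYCARD and 64.6% for GSDMD, against 41.0% for CASP1, 43.1% for CARD16, 46.2% for CASP4 and a median of 48.5% over tested genes. Among the 1994 tested genes with a GC content above 60%, the median log2 fold change of IRF1-KO over WT was 0.24, close to the values of PYCARD and GSDMD. With a correction for GC content the log2 fold change was 0.13 ± 0.28 for PYCARD and −0.11 ± 0.12 (SE) for GSDMD, so that of GSDMD changed sign. The same correction gave −3.46 ± 0.47 for CASP1, −3.18 ± 0.42 for CARD16 and −0.49 ± 0.12 (SE) for CASP4.

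**Figure D1:**
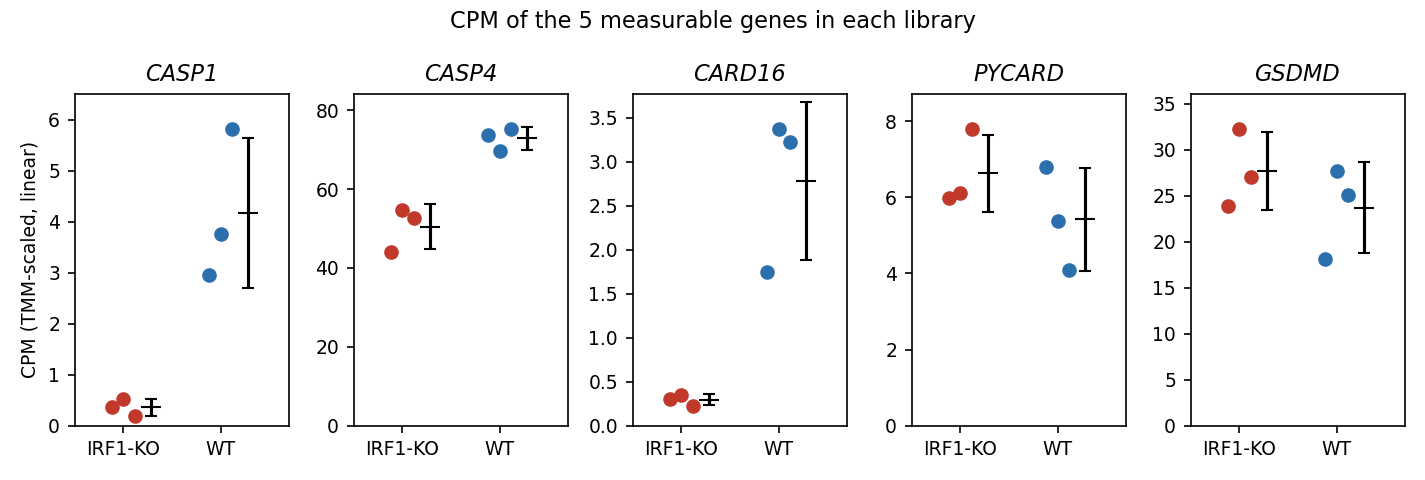
Each panel plots 1 gene on its own linear axis of CPM starting at 0, with a red point per IRF1-KO library, a blue point per WT library, and a black bar for mean ± SD (n = 3 each). For CASP1, CASP4 and CARD16 every IRF1-KO library lies below every WT library, whereas for PYCARD and GSDMD the points overlap.

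Over the 5 members in the fit, 0 passed an adjusted p of 0.05 with edgeR's quasi-likelihood test, against 17 (0.127%) of all 13388 tested genes, 0.112% lower and 0.0149% higher. At an unadjusted p of 0.05, 3 members were lower and 0 higher, against 3.75% lower and 5.39% higher of all tested genes. DESeq2 called 3 members lower and 0 higher at an adjusted p of 0.05, against 0.964% lower and 1.52% higher of all tested genes. In 3 members every IRF1-KO library was below every WT library and in 0 above, against 6.75% below and 8.03% above of all tested genes. The members were chosen with this contrast known, so nothing is read from these counts.

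Ratios between genes of 1 library do not depend on how the library is scaled. CASP1 made up 0.824%, 0.947% and 0.354% of the joint counts of CASP1 and CASP4 in IRF1-KO replicates 1 to 3, against 3.85%, 5.12% and 7.18% in WT replicates 1 to 3. The 95% exact binomial interval reached at most 1.79% in an IRF1-KO library and began at no less than 2.90% in a WT library. As CASP1 was chosen with this contrast known, these intervals describe the precision of each share and test nothing. CARD16 made up 0.688%, 0.633% and 0.424% of the joint counts of CARD16 and CASP4 in IRF1-KO replicates 1 to 3, against 2.32%, 4.62% and 4.11% in WT replicates 1 to 3. For CARD16 the intervals of IRF1-KO replicate 1, which reached 1.60%, and of WT replicate 1, which began at 1.59%, touched.

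The proportion of CASP1 to CARD16 could be measured only roughly. CASP1 gave 54.5%, 60% and 45.5% of the joint counts of CASP1 and CARD16 in IRF1-KO replicates 1 to 3, against 62.8%, 52.7% and 64.4% in WT replicates 1 to 3. The intervals overlapped between all 6 libraries, and they were wide in IRF1-KO, from 16.7% to 76.6% in replicate 3 with 11 counts in all. A shift of the proportion was therefore not detectable at this depth.

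**Figure D2:**
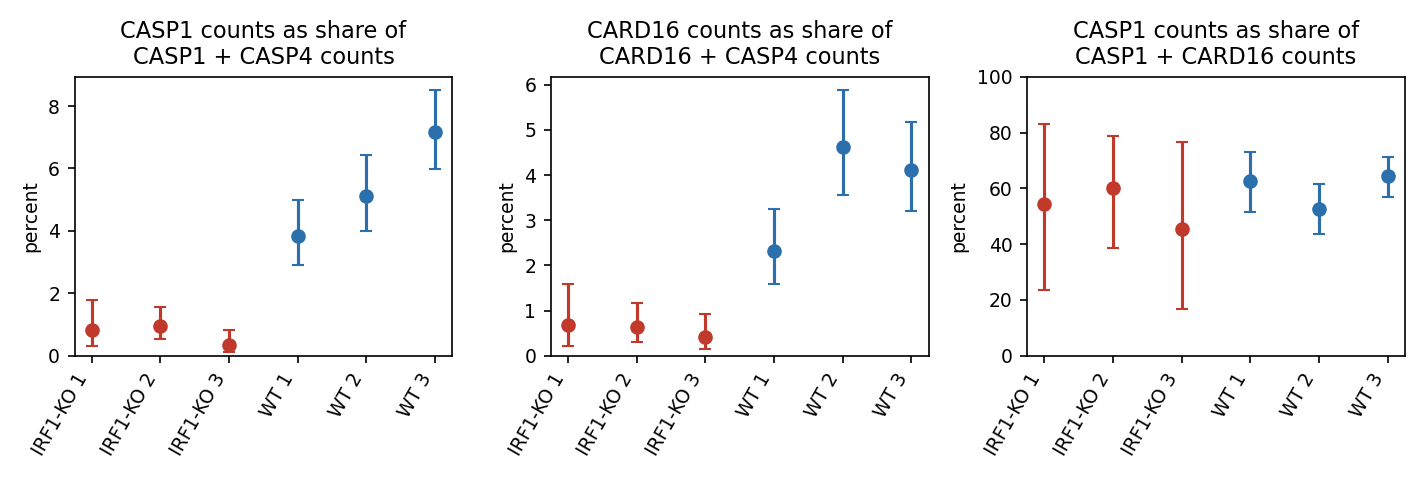
Points give the share of counts in percent in each library, IRF1-KO in red and WT in blue, with 95% exact binomial intervals that cover counting error only. The shares of CASP1 and of CARD16 against CASP4 were under 1% in each IRF1-KO library and above 2% in each WT library, while the share of CASP1 against CARD16 overlapped.

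Per length of exon (RPKM, CPM per kilobase of merged exons), the order of levels was the same in both groups. In IRF1-KO libraries CASP4 had 7.58 ± 0.857, GSDMD 5.45 ± 0.835, PYCARD 3.99 ± 0.610, CARD16 0.174 ± 0.0373 and CASP1 0.0970 ± 0.0455 RPKM (SD, n = 3). In WT libraries CASP4 had 10.9 ± 0.442, GSDMD 4.66 ± 0.973, PYCARD 3.26 ± 0.814, CARD16 1.65 ± 0.530 and CASP1 1.13 ± 0.399 RPKM (SD, n = 3). In both groups the ranges of GSDMD and PYCARD overlapped, as did those of CARD16 and CASP1. Of genes next to each other in this order, only CASP4 against GSDMD and PYCARD against CARD16 were separated beyond the spread of the libraries. Within each library CARD16 was above CASP1. GSDMD was above PYCARD except in WT replicate 1, with 3.57 against 4.09 RPKM. The merged exon length in the table is 3698 bases for CASP1 and 1688 bases for CARD16.

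The genes that flank the cluster gave no call. The table held 11 other genes within 2 Mb of it, of which 8 were tested. With edgeR 0 of the 8 passed an adjusted p of 0.05, against 0.127% of all tested genes, and DESeq2 called 0. At an unadjusted p of 0.05, 0 were lower and 0 higher, against 3.75% and 5.39% of all tested genes. At such shares, 0 of 8 says little. In 2 of them, DCUN1D5 and CWF19L2, every IRF1-KO library was above every WT library, and in 0 below. The shares over all tested genes were 8.03% above and 6.75% below. Their log2 fold changes ran between −0.38 for MMP13, a collagenase gene, and 0.23 for CWF19L2, with a median of 0.06, against −0.02 over all tested genes. The smallest p was that of DCUN1D5, which had 79.5 ± 1.47 CPM in IRF1-KO and 68.9 ± 4.40 CPM in WT (SD, n = 3 each; log2 fold change 0.21 ± 0.10, SE; edgeR adjusted p = 0.606).

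**Figure D3:**
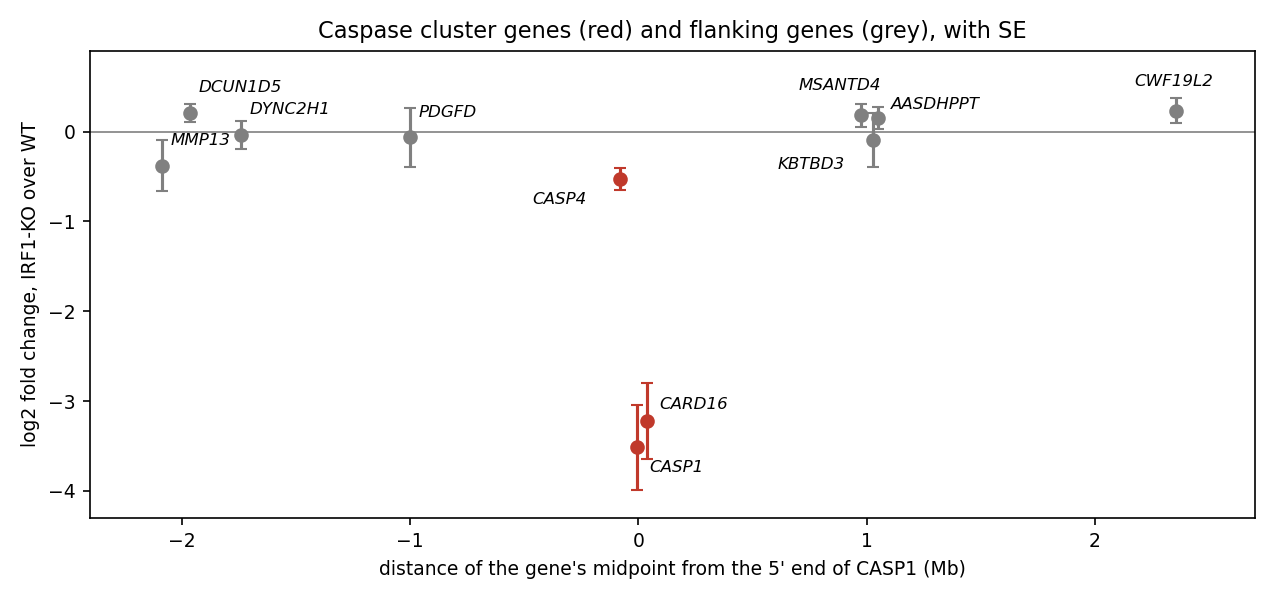
The vertical axis is the log2 fold change of IRF1-KO over WT with its SE, and the horizontal axis is the distance in Mb of each gene's midpoint from the 5′ end of CASP1, with cluster genes in red and flanking genes in grey. CASP1 and CARD16 stand below −3 and CASP4 at −0.53, while the 8 flanking genes lie between −0.38 and 0.23; CASP5, CARD17 and CARD18 were too low to be plotted.

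Of the 8 genes, CASP4, CASP5 and PYCARD are in the RefSeq promoter table (GRCh38.p14; 250 bases before and 50 after the gene's start). The start is that of the RefSeq entry. For CASP4 and PYCARD (chr16:31202711-31203010, minus strand) the whole window lies inside the gene span given above, so this start differs from the end of that span. CASP4 (chr11:104968525-104968824, minus strand) and CASP5 (chr11:105023119-105023418, minus strand) are printed because these neighbouring genes differ so much in level. Capitals mark matches, on either strand, to AANNGAAA, the core of sites that IRF proteins bind, and to TTCNNNGAA, the form bound by STAT dimers.
CASP4: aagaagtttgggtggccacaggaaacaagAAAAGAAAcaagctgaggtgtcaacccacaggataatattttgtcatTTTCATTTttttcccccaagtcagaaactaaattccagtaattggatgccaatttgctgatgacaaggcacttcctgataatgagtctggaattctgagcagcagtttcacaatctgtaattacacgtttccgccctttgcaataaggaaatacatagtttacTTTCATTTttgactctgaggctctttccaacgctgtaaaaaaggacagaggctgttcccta
CASP5: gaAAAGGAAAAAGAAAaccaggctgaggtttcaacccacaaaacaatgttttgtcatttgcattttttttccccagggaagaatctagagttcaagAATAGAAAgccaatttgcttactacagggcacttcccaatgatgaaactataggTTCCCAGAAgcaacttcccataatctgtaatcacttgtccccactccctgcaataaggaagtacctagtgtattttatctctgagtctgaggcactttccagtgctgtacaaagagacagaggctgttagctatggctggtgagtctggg
The CASP4 promoter held 3 matches to AANNGAAA, with the first base at −221, −174 and −11 from the gene's start, and none to TTCNNNGAA. The CASP5 promoter held 3 matches to AANNGAAA at −248, −242 and −154, of which the first 2 overlap, and 1 match to TTCNNNGAA at −100, although CASP5 was close to undetected. PYCARD had no match to either motif in this window. Among all 35116 promoters in the table, 22.8% held AANNGAAA and 7.66% TTCNNNGAA. A match is a run of letters and does not show that a factor was bound.

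The genes whose profiles lay nearest to CASP1 and CARD16 were found by the root mean square difference of log2 CPM over the 6 libraries, each gene centred on its own mean, among 13387 other tested genes. CARD16 was the nearest gene to CASP1, at 0.35 log2 units, followed by the peptide and histidine transporter gene SLC15A3 (0.45) and the ETS factor gene ETV7 (0.51). For CARD16 the nearest was RTP4, an interferon-induced gene, at 0.22, followed by CASP1 (0.35) and UBA7, the gene of the ISG15-activating enzyme (0.37). SLC15A3 averaged 0.649 CPM in IRF1-KO and 4.69 CPM in WT libraries, and ETV7 0.390 and 3.05 CPM. That these nearest genes were lower in IRF1-KO follows from how they were picked. CASP1 and CARD16 share some of their sequence, and its part in this likeness was not tested. CASP4 ranked 400th from CASP1 and 429th from CARD16 among the 13387 genes, at 1.43 and 1.21 log2 units. Counted from CASP4, CASP1 ranked 13282nd and CARD16 13174th.

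CASP4 lay nearest to RNF43 (0.09), PARP3 (0.09) and MOV10 (0.09), whose log2 fold changes were −0.43, −0.37 and −0.57. PYCARD lay nearest to ARL15, ZNF850 and MAGEF1, and GSDMD to MFSD12, ESRRA and GRAMD4, all with small positive log2 fold changes between 0.19 and 0.39. By rank among tested genes, CASP1 and CARD16 were near each other. Counted from CASP4, PYCARD or GSDMD, no other member ranked near. By distance the contrast was small, with PYCARD 0.40 and CASP4 0.44 from GSDMD, against 0.35 between CASP1 and CARD16. The distance is not scaled to the size of a gene's differences, so ranks of genes with small and large differences are not comparable. PYCARD ranked 9646th from GSDMD among 13387 genes.

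**Figure D4:**
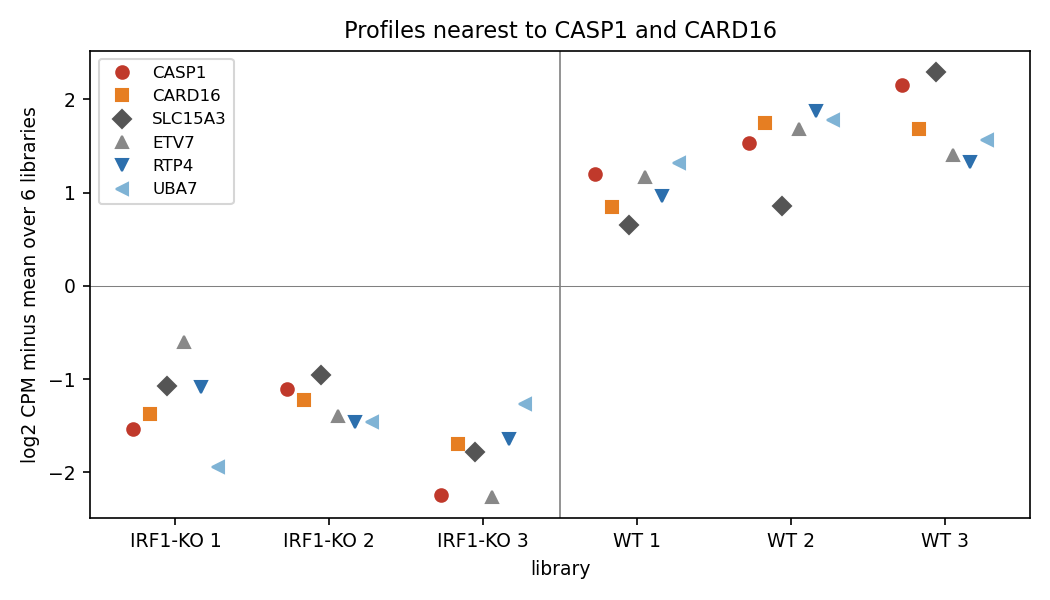
Points give log2 CPM minus the gene's mean over the 6 libraries for CASP1, CARD16 and the 4 other genes nearest to either, by library. All 6 genes are below 0 in each IRF1-KO library and above 0 in each WT library. The 4 other genes were picked for this likeness in the same libraries, so the shared direction follows from the choice.

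Other genes of the inflammasome and pyroptosis pathway were taken from a list of 57 partners, of which 41 were tested. With edgeR 0 of them passed an adjusted p of 0.05, and 12 were lower and 1 higher at an unadjusted p of 0.05. The 12 lower genes are 29.3% of those tested, against 3.75% of all tested genes. The count of lower genes was 5 without IRF1-KO replicate 1, 6 without IRF1-KO replicate 2 and 5 without WT replicate 2. The median log2 fold change was −0.29, against −0.02 over all tested genes, with 35 negative and 6 positive values. In 11 partners every IRF1-KO library was below every WT library, or 26.8%, against 6.75% of all tested genes. DESeq2 called 3 partners lower, TRIM31 among them, and 1 higher, IRF1.

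Sensors start inflammasomes, and 5 of 12 were tested, all with negative values. NLRP1, an epithelial sensor that carries its own CARD, had the smallest p, with 4.15, 6.88 and 3.93 CPM in IRF1-KO replicates 1 to 3, against 7.11, 13.2 and 10.4 CPM in WT replicates 1 to 3. Its groups did not overlap, but IRF1-KO replicate 2 came close to WT replicate 1 (log2 fold change −1.03 ± 0.31, SE; edgeR adjusted p = 0.336). NLRP1 shares 4.38% of its exonic bases with an unnamed gene on the same strand. IFI16, a DNA sensor, was at −0.60 ± 0.23 (SE), CARD8 at −0.24 ± 0.14, and AIM2 and NLRC4 were low, averaging 0.259 and 0.530 CPM in IRF1-KO and 0.688 and 0.803 CPM in WT libraries. NLRP3, the best studied sensor, had 5, 9 and 1 counts in IRF1-KO and 7, 6 and 10 counts in WT replicates 1 to 3 and was not tested.

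Of the cytokines that caspase-1 matures, IL18 was well expressed and IL1B was not. IL18 had 74.1, 83.4 and 53.6 CPM in IRF1-KO replicates 1 to 3, against 77.2, 80.8 and 94.8 CPM in WT replicates 1 to 3, with overlapping groups (log2 fold change −0.26 ± 0.18, SE; edgeR adjusted p = 0.747). IL1B averaged 1.33 CPM in IRF1-KO and 0.776 CPM in WT libraries, with a log2 fold change of 0.78 ± 0.57 (SE). IL18BP, which encodes the secreted inhibitor of interleukin-18, had 9.19 ± 0.711 CPM in IRF1-KO and 11.4 ± 1.37 CPM in WT (SD, n = 3 each; edgeR adjusted p = 0.676). IL18BP shares 15.6% of its exonic bases with NUMA1 on the opposite strand, and as the strand setting is not given its counts are uncertain to that extent.

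Of the 4 other gasdermin genes tested, 0 had an unadjusted p under 0.05, against 3.75% lower and 5.39% higher of all tested genes. GSDMB, which encodes a pore-former cleaved by granzyme A, had 2.50, 13.6 and 8.02 CPM in IRF1-KO replicates 1 to 3, against 17.2, 37.7 and 6.49 CPM in WT replicates 1 to 3. WT replicate 3 lay within the IRF1-KO range (log2 fold change −1.33 ± 0.75, SE; edgeR adjusted p = 0.688). GSDMC was at −0.67 ± 0.53, GSDME at −0.21 ± 0.20 and PJVK at −0.05 ± 0.28 (SE).

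Among 11 tested regulators and executors, 4 were lower at an unadjusted p of 0.05, or 36.4%, against 3.75% of all tested genes. They were TRIM31, TXNIP, PANX1 and SERPINB1. TRIM31, a ubiquitin ligase gene, had 2.93, 12.7 and 4.08 CPM in IRF1-KO replicates 1 to 3, against 18.8, 44.1 and 17.4 CPM in WT replicates 1 to 3. Replicate 2 was the highest in both groups (log2 fold change −2.01 ± 0.63, SE; edgeR adjusted p = 0.371). NINJ1, which encodes the protein that ruptures the membrane of dying cells, was at 0.25 ± 0.20 and, with the GC correction, at 0.01 ± 0.17, and NEK7, a partner of NLRP3, at −0.24 ± 0.18 (SE).

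The caspases of apoptosis gave a comparison within the wider family. CASP2 had 65.2, 56.8 and 64.7 CPM in IRF1-KO replicates 1 to 3, against 88.8, 70.8 and 71.7 CPM in WT replicates 1 to 3. Its groups did not overlap (log2 fold change −0.31 ± 0.13, SE; edgeR adjusted p = 0.531). CASP10, a relative of the initiator CASP8, had a log2 fold change of −0.63 ± 0.27 (SE) and was also lower at an unadjusted p of 0.05. CASP8 was at −0.30 ± 0.22, CASP9, the initiator of the mitochondrial pathway, at −0.34 ± 0.16 and CASP6 at −0.02 ± 0.10 (SE), none of them past an unadjusted p of 0.05. CASP6 shares 5.04% of its exonic bases with MCUB on the opposite strand.

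Of the transcription factors upstream of these genes, IRF2 is a relative of IRF1 known to act on GSDMD and CASP4. It had 18.9, 24.7 and 23.3 CPM in IRF1-KO replicates 1 to 3, against 26.6, 36.4 and 28.4 CPM in WT replicates 1 to 3. The groups did not overlap, and IRF1-KO replicate 1 was the lowest of the 6 (log2 fold change −0.45 ± 0.17, SE; edgeR adjusted p = 0.469). NFKB1 was at −0.29 ± 0.11 and RELA, which encodes its partner subunit, at 0.04 ± 0.12 (SE). IRF1 was the 1 partner higher at an unadjusted p of 0.05 (0.51 ± 0.10, SE; edgeR adjusted p = 0.135).

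**Figure D5:**
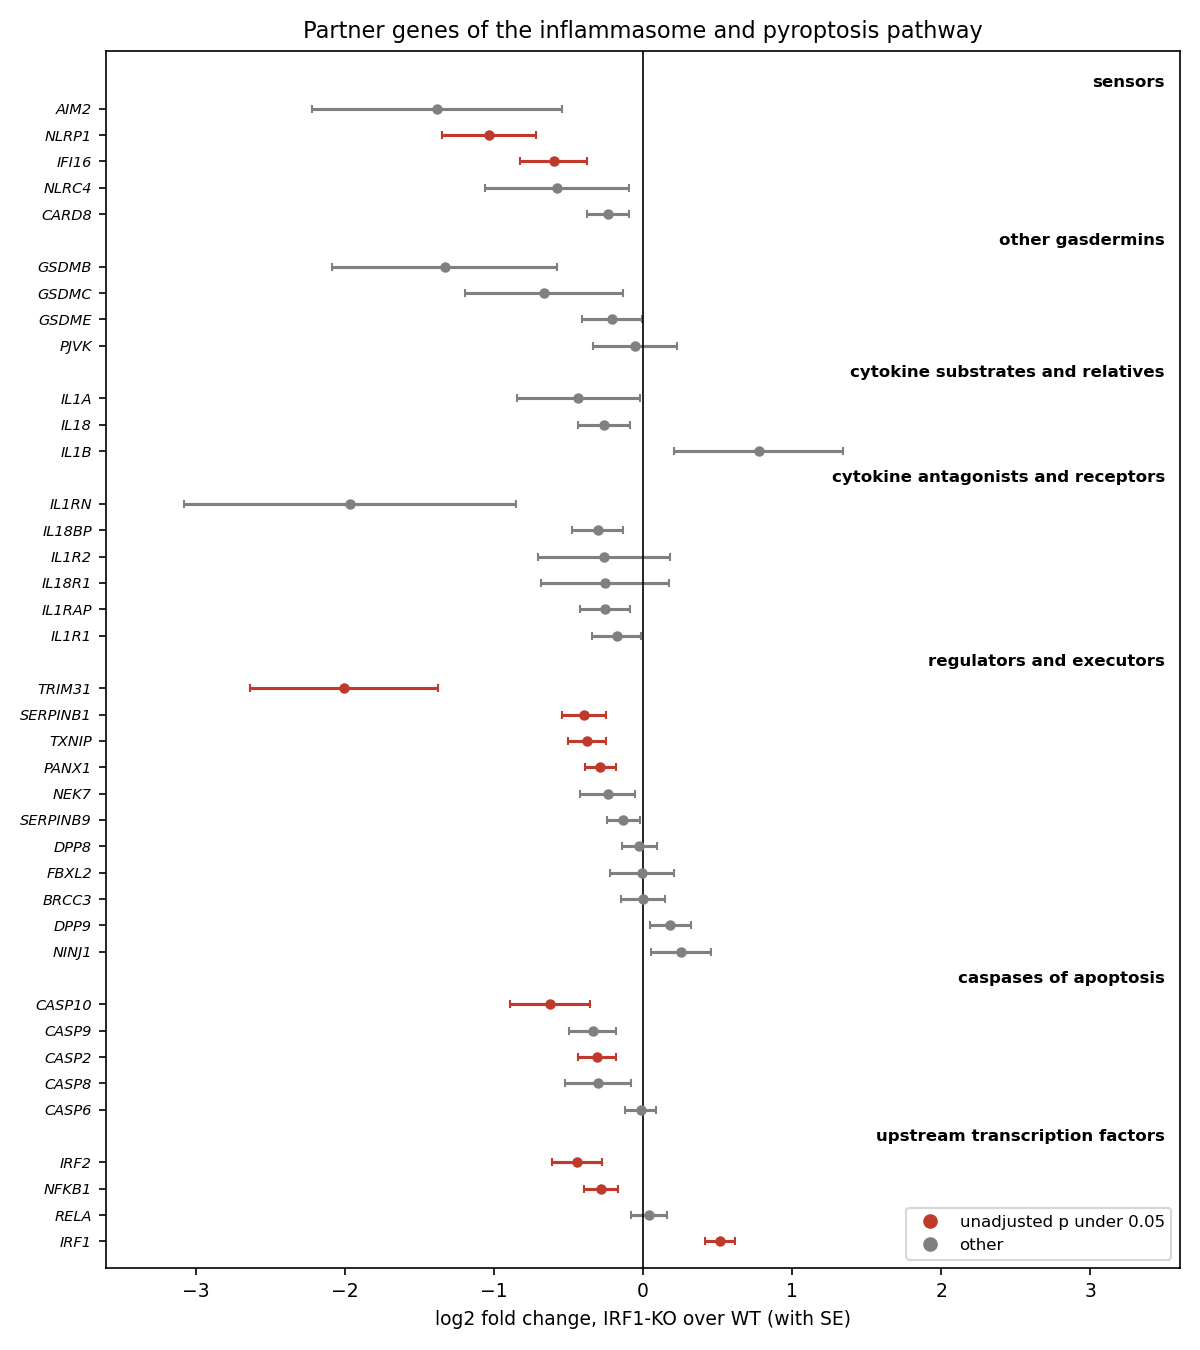
The horizontal axis is the log2 fold change of IRF1-KO over WT with its SE for 38 of the tested partner genes, grouped by role, with red for an unadjusted p under 0.05 and grey for the rest. Of these 38 genes, 33 lie left of 0, and the red points are 10 lower genes and IRF1.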

How the data were processed

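Poly(A)-selected RNA of 6 libraries, 3 IRF1-KO and 3 WT, was sequenced, and the authors deposited 1 table of gene counts, whole numbers that are not normalized, with gene lengths. The submitters' processing notes name featureCounts 0.6.1, edgeR 3.2.2 and the build GRCh38 (hg38). Aligner, annotation, read length and strand setting were not given in the sources used here. Symbols came from a table of current names for 19342 identifiers and from GENCODE 29 for 56 more, and all 8 members matched.

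The main test ran in edgeR 4.0.16 under R 4.3.3 (filterByExpr, TMM, robust quasi-likelihood F test, two-sided), adjusted by Benjamini-Hochberg over 13388 genes. Standard errors are those implied by the F statistic. Alternatives used limma 3.58.1 (voom) and DESeq2 1.42.0, and the GC correction subtracted a spline with 5 degrees of freedom per library. The procedure was tested on simulated counts, with changes placed only in genes of higher mean CPM than CASP1 and CARD16. That test therefore does not cover genes with so few counts. Pairs of libraries of a group differed by a chi-square of 27.1 to 57.2 per degree of freedom, more than counting error alone gives. None was therefore treated as the same library sequenced again. Whether the libraries of a group came from separate pools was not tested. Named were the 8 members, IRF1, for each role of the partner list and for the flanking genes those past the adjusted threshold or else the gene with the smallest p, and the 3 genes nearest in profile to each tested member; further partner and flanking genes are given after their values were seen. Some partner genes, which stay in the counts over the list, are not reported here by name. The members, lists and tests were chosen with earlier results of these data known.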

Additional observations from a re-analysis of the deposited data

How the results depend on the processing

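The log2 fold changes of CASP1, CARD16, CASP4 and PYCARD kept their direction in every alternative that gave a value and moved by less than the spread between replicates; the stricter filter gave none for CASP1 and CARD16. Leaving out 1 library at a time gave −3.95 to −3.18 for CASP1, −3.45 to −3.05 for CARD16, −0.59 to −0.42 for CASP4, 0.15 to 0.51 for PYCARD and 0.09 to 0.36 for GSDMD. GSDMD turned to −0.11 with the GC correction, and also to −0.11 with the GC correction and the replicate block together. Of the members, 2 passed an adjusted p of 0.05 without the filter on low counts and without WT replicate 3, and 1 without WT replicate 1. Over all genes the count past that threshold, 17, was 31 without the filter, 332 with DESeq2, 31 with the replicate number as a block and 11 with the block and the GC correction, and 3 to 91 when 1 library was left out (3 without IRF1-KO replicate 1 or 3, 5 without WT replicate 2, 91 without WT replicate 3). Among partner genes the count, 0, was 4 with DESeq2, 1 (TRIM31) with the replicate block and 0 to 1 when 1 library was left out, and the 12 lower at an unadjusted p became 5 to 12. The flanking genes had no call in any of the 15 alternatives. Deviations of libraries with the same number had correlations of −0.0155, 0.253 and 0.0571 for replicates 1 to 3, against −0.295 to 0.245 for unlike numbers. With 3 libraries per group these values cannot settle whether the numbers pair the samples, and the main fit did not pair them. With the replicate block the SE fell from 0.63 to 0.21 for TRIM31 and rose from 0.48 to 0.52 for CASP1. The cause of these shifts was not tested. Depth limits the members with few counts: IRF1-KO libraries held 5 to 15 counts of CASP1 and 5 to 10 of CARD16, and CASP5, CARD17 and CARD18 had no more than 2 counts in any library.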
